A study of Mus musculus with 7 samples.

Results

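The seed family of miR-130, miR-301 and miR-721 is a group of mouse microRNAs (miRNAs) that carry the same bases at the positions that pair with target messages. Its members here were the 5 mature names mmu-miR-130a-3p, mmu-miR-130b-3p, mmu-miR-301a-3p, mmu-miR-301b-3p and mmu-miR-721, taken by name from the 1881 mouse miRNA names on the array. The arrays were 1-colour Agilent miRNA arrays, each hybridised with Cy3-labelled total RNA from CD4+ T cells of draining lymph nodes. There were 4 arrays from EAM mice, a model of myocarditis, at day 6 after induction, and 3 arrays from LAD mice, a model of myocardial infarction, at day 3, as the sample labels give the days. The design text of the series assigns these days the other way round. Model and day therefore cannot be told apart, and no untreated group was analysed here. The cells of both groups were labelled with a biotin-conjugated antibody to CD4 before separation. The strain, sex, age and any inducing agent, and whether each array came from its own animal, are not given in the sources used here, so the p-values measure only the spread between these arrays.

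A microRNA is loaded as a single strand into an Argonaute protein and guides it to messages that pair with its seed, the bases from position 2 to position 8. The messages are then degraded or translated less. MicroRNAs with one seed can share targets. In CD4+ T cells, miR-301a-3p is known for promoting the differentiation of IL-17-producing helper cells through repression of Pias3, an inhibitor of Stat3.

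The mature sequences are shown because the shared seed defines the family and the 3′ ends tell its members apart. They are RefSeq sequences on GRCm38.p6, 5′ to 3′, with the seed in capitals, and 4 of the 5 members matched the table.
miR-130a-3p: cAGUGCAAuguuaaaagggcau
miR-130b-3p: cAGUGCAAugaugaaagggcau
miR-301a-3p: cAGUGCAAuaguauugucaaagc
miR-721: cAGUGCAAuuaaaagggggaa
Counted from the miRNA's 5′ end, miR-130b-3p differed from miR-130a-3p by U11A and A13G and at no other base. The seed AGUGCAA was held by 7 of the 1738 mature miRNAs in the table.

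The array told these similar miRNAs apart with short probes that bind from the 3′ end, 14 probes for the 5 members. The longest probe of each member is shown, because its reach decides which neighbour it could also bind. Capitals mark the bases at which the probes of a pair differ, 5′ to 3′.
miR-130a-3p probe: atgccctttTaAcattgca
miR-130b-3p probe: atgccctttCaTcattgc
miR-301a-3p probe: gctttgacaatacTattgcac
miR-301b-3p probe: gctttgacaatacCattgca
miR-721 probe: ttcccccttttaatt
Counted from the probe's 5′ end, the differences were T10C and A12T between the miR-130a-3p and miR-130b-3p probes, and T14C between the miR-301a-3p and miR-301b-3p probes. The 19-base miR-130a-3p probe matched 17 bases of miR-130b-3p. The 20-base miR-301b-3p probe matched 19 bases of miR-301a-3p, with a longest unbroken run of 13. The signal of one member of a pair may thus hold some signal of the other, and how much was not tested. The miR-721 probes were 12 to 15 bases long and the longest matched at most 9 bases of miR-130a-3p, miR-130b-3p or miR-301a-3p.

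The 5 genes lie at 4 places in GRCm38.p6. Mir130b (chr16:17124061-17124142, minus strand) and Mir301b (chr16:17124400-17124496, minus strand) are 257 bases apart, and both lie within the span of 2610318N02Rik. Mir301, the gene of miR-301a-3p, lies on the plus strand within the span of Ska2 (chr11:87113004-87113089). Mir721 lies on the minus strand within Cux1 (chr5:136375716-136375803). Mir130a (chr2:84741115-84741178, minus strand) overlapped no other gene. The table used holds gene spans only, so exon or intron was not determined.

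The Mir130b hairpin is shown because both of its arms were measured, with the 5p and then the 3p arm in capitals.
Mir130b hairpin: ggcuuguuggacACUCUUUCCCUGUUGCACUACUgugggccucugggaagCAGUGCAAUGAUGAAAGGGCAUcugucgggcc

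The groups differed in signal and the LAD arrays differed from each other. Between 445 and 471 names were detected on the EAM arrays, and 341, 380 and 311 on LAD arrays 1, 2 and 3. The 75th percentile of the intensity of probes detected on all arrays was 803 to 1086 on the EAM arrays, against 196, 502 and 125 on the LAD arrays. Across the 423 tested miRNAs, which are not independent replicates, the EAM arrays correlated with each other at Pearson's r of 0.994 to 0.998. LAD array 2 correlated with both other LAD arrays at 0.902 and with the EAM arrays at 0.928 to 0.935, while LAD arrays 1 and 3 correlated at 0.967. LAD array 2 thus stood apart from the other LAD arrays, and the group differences of the members and of miR-130b-5p are given with and without it. Against the label of CD4+ T cells, all 5 miRNAs of the lymphocyte list were detected on all 7 arrays. They held 19.7 to 22.3% of the total gene signal on EAM arrays and 14.3 to 16.9% on LAD arrays. The list includes both miR-142a arms, which are of leukocytes in general, so its share does not single out lymphocytes. On LAD array 2 this list did not move as one in log2 signal. There miR-150-5p stood at 9.81, against 12.42 to 12.52 in EAM, and miR-342-3p at 9.53, against 10.88 to 11.01. The miR-142a 3p and 5p arms stood at 14.86 and 12.74, against 15.18 to 15.4 and 13.04 to 13.14. The other way, miR-181a-5p stood at 11.97, against 7.51 to 7.90. This was not particular to LAD array 2. On LAD array 3 miR-150-5p stood at 11.19, miR-342-3p at 10.43 and miR-181a-5p at 11.55. On LAD array 1 they stood at 12.19, 11.16 and 9.05. The 4 heart muscle miRNAs were detected on no array. Of the 2 myeloid miRNAs, 1 (miR-223-3p) was detected, and the list held 0.0263 to 0.0283% of the signal on EAM arrays and 0.0887 to 0.225% on LAD arrays. Of the 3 red cell miRNAs 1 (miR-451a) was detected on every array, at 0.0235 to 0.0453% of the signal in EAM and 0.0264 to 0.103% in LAD for the list. Of the 5 epithelial miRNAs 4 were detected on each EAM array and 0 to 2 on the LAD arrays. Of the 6 endothelial and stromal miRNAs only miR-126a-3p, of endothelial cells, was detected, on 5 arrays. It was highest on LAD array 2, at a log2 signal of 5.90 against 4.36 to 5.28 on the other arrays, and the list held 0.0158% of the signal there, 0.0185% on LAD array 3 and 0.000291 to 0.00509% on the other 5. The part of other cells in the results was not tested. In bulk cells, fewer cells of a type and less RNA per cell cannot be told apart.

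Of the family, miR-130b-3p and miR-301a-3p were detected on all 7 arrays. miR-130a-3p and miR-301b-3p were detected on LAD array 2 alone, and miR-721 on none. The 2 members found on all arrays had their highest value on LAD array 2, in all 9 ways of computing the values. Neither passed the test between EAM and LAD: 0 of 2, also 0 of 2 at an unadjusted p under 0.05, where limma called 59.8% of the 423 tested miRNAs at an adjusted p under 0.05. The groups overlapped for both, while 56.3% of the tested miRNAs had groups that did not overlap. Their direction between the models depended on LAD array 2 and on the scaling. The median difference of all tested miRNAs, EAM minus LAD, was 0.31 on the log2 scale here, 0.69 with each array centred on its median and 1.17 with no scaling. Relative to that median, miR-130b-3p stood at -1.01 here and at -0.42 under both of those scalings, and miR-301a-3p at -0.53 and -0.26. The differences themselves turned to higher in EAM under both of those scalings. With arrays scaled to the 75th percentile of all probes, miR-130b-3p stood at -0.12 and miR-301a-3p at 0.06 relative to the median.

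**Figure D1:**
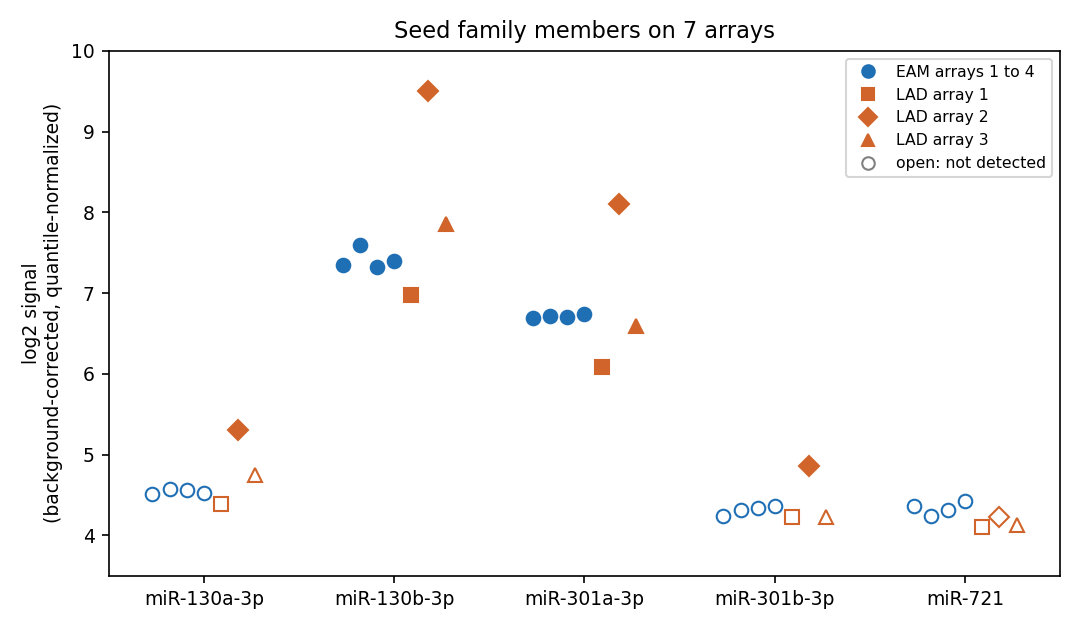
Background-corrected, quantile-normalized log2 signal of the 5 members on each array, with a point per array, blue for EAM and orange for LAD, and open points where the miRNA was not detected. The EAM arrays of miR-301a-3p lie between 6.69 and 6.73, while LAD array 2 stands at 8.11 and the other LAD arrays at 6.08 and 6.59.

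miR-130b-3p, the most strongly raised member on LAD array 2, had log2 signals of 7.35, 7.60, 7.32 and 7.39 on EAM arrays 1 to 4, and of 6.98, 9.51 and 7.86 on LAD arrays 1 to 3. The EAM arrays lay close together, LAD arrays 1 and 2 lay below and above all of them, and the groups overlapped. The EAM mean was 7.42 ± 0.13 (SD, n = 4) and the LAD mean 8.11 ± 1.28 (SD, n = 3), in log2 signal. The difference, EAM minus LAD, was -0.70 (SE 0.51, 95% confidence interval -1.90 to 0.50, limma with Benjamini-Hochberg adjustment over 423 miRNAs, adjusted p = 0.250). An exact two-sided permutation test gave p = 0.457, where 4 arrays against 3 cannot go below 0.0571. LAD array 2 alone was 4.40-fold above the median of the other 6 arrays. Without LAD array 2 the difference was -0.0030 (limma, adjusted p = 0.992), in a comparison that called 81.3% of the tested miRNAs. Without LAD array 1, the lowest array, it was -1.27 (limma, adjusted p = 0.0499), in a comparison that called 147 of the 423.

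miR-301a-3p, the member known from IL-17-producing cells, had log2 signals of 6.69, 6.72, 6.71 and 6.73 in EAM and of 6.08, 8.11 and 6.59 in LAD. The EAM arrays spanned a narrow range; LAD array 2 was above it, LAD arrays 1 and 3 were below it, and the groups overlapped. The EAM mean was 6.71 ± 0.02 (SD, n = 4) and the LAD mean 6.93 ± 1.05 (SD, n = 3). The difference, EAM minus LAD, was -0.21 (SE 0.42, 95% confidence interval -1.20 to 0.77, limma, adjusted p = 0.658), and the exact two-sided permutation test gave p = 0.857. LAD array 2 was 2.65-fold above the median of the other 6 arrays. Without it the direction turned and the difference was 0.38, higher in EAM (limma, adjusted p = 0.0436), where 81.3% of the tested miRNAs were called. With arrays weighted by their fit, where the fit did not converge, the difference was 0.53 (limma, adjusted p = 0.00877). That fit called 347 of the 423 tested miRNAs.

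The unscaled signals showed the same order on LAD array 2, on arrays of very different brightness. The total gene signal, Agilent's background-subtracted sum over a miRNA's probes, was 113.9, 141.2, 94.8 and 123.0 for miR-130b-3p on EAM arrays 1 to 4, and 19.7, 235.0 and 27.4 on LAD arrays 1 to 3. For miR-301a-3p it was 72.3, 71.5, 56.6 and 72.6 in EAM, and 10.9, 98.1 and 13.0 in LAD. Before scaling, LAD arrays 1 and 3 were thus far below every EAM array for both members, and LAD array 2 above every EAM array. The part of the brightness of the arrays in these values was not tested.

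The ratio of the members within an array is the same whatever single factor an array is scaled by, and only its change between arrays can be read. The ratio of miR-130b-3p to miR-301a-3p in total gene signal was 1.58, 1.98, 1.68 and 1.70 on EAM arrays 1 to 4 and 1.81, 2.40 and 2.11 on LAD arrays 1 to 3. LAD arrays 2 and 3 lay above every EAM array, and LAD array 1 lay inside the EAM range. On LAD arrays 1 and 3 the ratio rests on dim signals. There miR-301a-3p had 10.9 and 13.0, with scanner errors of 1.39 and 1.46. On the log2 scale the ratio averaged 0.79 ± 0.14 for EAM (SD, n = 4) and 1.06 ± 0.20 for LAD (SD, n = 3), a difference of -0.28 (exact two-sided permutation test, p = 0.114). Without LAD array 2 the difference was -0.18. These comparisons were chosen after the data were seen.

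miR-130a-3p, from a gene of its own, had log2 signals of 4.51, 4.57, 4.56 and 4.52 in EAM and of 4.39, 5.30 and 4.75 in LAD. LAD array 2 was the highest and the only array on which the miRNA was detected, and LAD array 3 was next, without a detection. The EAM mean was 4.54 ± 0.03 (SD, n = 4), the LAD mean 4.81 ± 0.46 (SD, n = 3), and the exact two-sided permutation test gave p = 0.286. miR-301b-3p, which lies beside miR-130b-3p in the genome, had 4.23, 4.32, 4.34 and 4.36 in EAM and 4.23, 4.86 and 4.22 in LAD (exact two-sided permutation test, p = 0.857). LAD array 2 was again the highest, and the other 6 arrays lay between 4.22 and 4.36. Outside LAD array 2 both were low, beside undetected miRNAs with a median log2 signal of 4.14 to 4.17 per array. No fold is given for either. The 95th percentile of undetected miRNAs was 4.50 on LAD array 2, which both members exceeded. miR-130a-3p also exceeded it, by little, on EAM arrays 1, 2 and 3 and on LAD array 3, where it was 4.68. On EAM array 4 and LAD array 1 miR-130a-3p lay below it. When LAD array 2 was left out, the difference of EAM minus LAD moved from -0.27 to -0.03 for miR-130a-3p and from -0.13 to 0.09 for miR-301b-3p.

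Across the array, only 3 of the 1881 names (0.159%) were detected on LAD array 2 and on no other array. These were miR-130a-3p, miR-301b-3p and miR-106b-3p. Between 1 and 13 names were detected on any single other array alone. Each member was printed as 30 spots per array. All 30 spots of miR-130b-3p were well above background on each of the 7 arrays. For miR-301a-3p all 30 were so on the EAM arrays and LAD array 2, against 17 and 23 on LAD arrays 1 and 3. For miR-130a-3p 6 of 30 spots were well above background on LAD array 2, and for miR-301b-3p 11 of 30. On the other arrays no more than 1 spot of either was. No spot of any member was saturated.

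**Figure D2:**
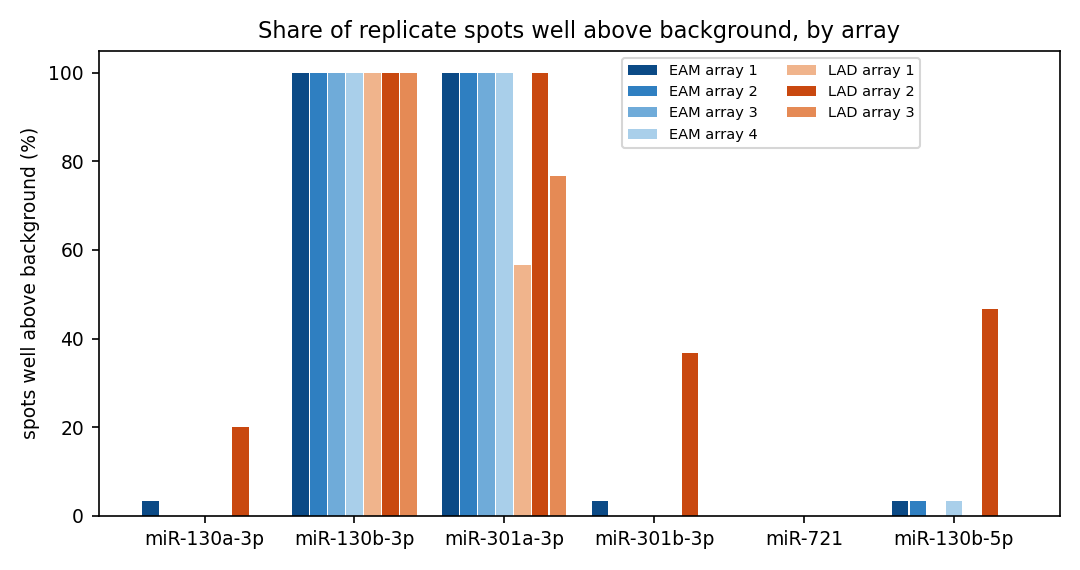
Percent of the 30 spots of each member, and of miR-130b-5p from the Mir130b hairpin, called well above background on each array by the scanner software, with a bar per array. miR-130b-3p is at the top on all 7 arrays, miR-301a-3p falls on LAD arrays 1 and 3, and miR-130a-3p and miR-301b-3p are above 5% on LAD array 2 alone, as is miR-130b-5p.

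miR-721, whose gene lies within the span of Cux1, was not well above background on any array. Its log2 signals were 4.36, 4.24, 4.31 and 4.43 in EAM and 4.10, 4.22 and 4.13 in LAD. The EAM arrays lay above the LAD arrays without overlap, at 4.33 ± 0.08 (SD, n = 4) and 4.15 ± 0.06 (SD, n = 3). The exact two-sided permutation test gave p = 0.0571, the smallest it can give, and limma over all names without a detection filter gave an adjusted p of 0.0572. That fit called 7.23% of the names detected on no array higher in EAM and 7.23% higher in LAD. None of its 210 spots was well above background, and its median spot intensities, 41.0 to 55.2, lay around those of the negative-control spots, 45.7 to 50.9. Of the 1328 names detected on no array, 11.4% also had their EAM arrays above all LAD arrays, and 19.2% the reverse. The difference, EAM minus LAD, was 0.18, and 0.22 without LAD array 2. With both groups below background, no fold is given.

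The gap on LAD array 2 was compared with that of other miRNAs on the same array. LAD array 2 was the highest of the 7 arrays for 66 of the 423 tested miRNAs (15.6%). Measured from the EAM mean, miR-130b-3p was 2.09 higher on the log2 scale on LAD array 2 (4.26-fold), and 5 of the 423 tested miRNAs were further above theirs. miR-301a-3p was 1.39 higher (2.63-fold), with 11 further above. The median of all tested miRNAs was -0.05 on that array. On LAD array 1, miR-130b-3p stood at -0.43 and miR-301a-3p at -0.63, against a median of -0.37 for all. On LAD array 3 they stood at 0.44 and -0.12, against a median of -0.47.

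**Figure D3:**
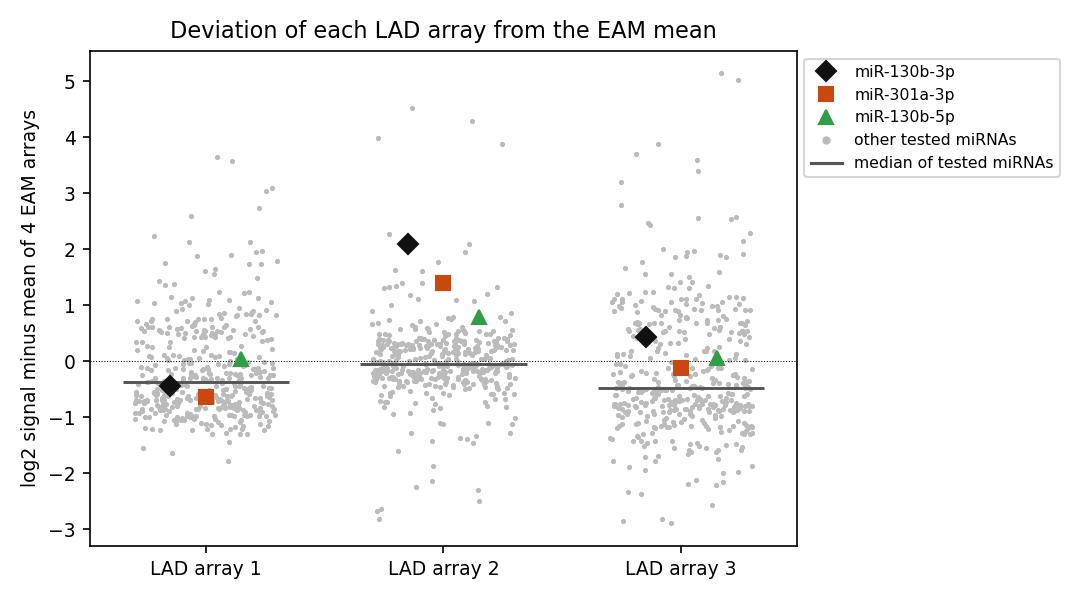
Difference from the EAM mean, in log2 signal, of the 423 tested miRNAs on each LAD array, as grey points spread sideways at random, with the median as a line and the 2 tested members and miR-130b-5p as larger symbols. On LAD array 2 miR-130b-3p lies at 2.09 and miR-301a-3p at 1.39, in the upper tail, and on LAD array 1 both lie below the median.

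The 2 probes of each tested member agreed on the height of LAD array 2 and less on the group difference. The 17-base and 18-base probes of miR-130b-3p put LAD array 2 above the median of the other 6 arrays by 2.01 and 2.26 on the log2 scale, and the 20-base and 21-base probes of miR-301a-3p by 1.30 and 1.54. The difference EAM minus LAD without LAD array 2 was 0.19 and -0.19 for the miR-130b-3p probes, and 0.50 and 0.25 for the 20-base and 21-base miR-301a-3p probes. The 4 probes of miR-301b-3p, of 17, 18, 19 and 20 bases, gave 0.07, 0.07, 1.04 and 1.26 on LAD array 2. Against miR-301a-3p these probes matched 16 of 17, 17 of 18, 18 of 19 and 19 of 20 bases. The part of miR-301a-3p in their signals was not tested. The 18-base and 19-base probes of miR-130a-3p gave 0.70 and 0.83 on LAD array 2. Its 6 spots well above background there all came from the 19-base probe.

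**Figure D4:**
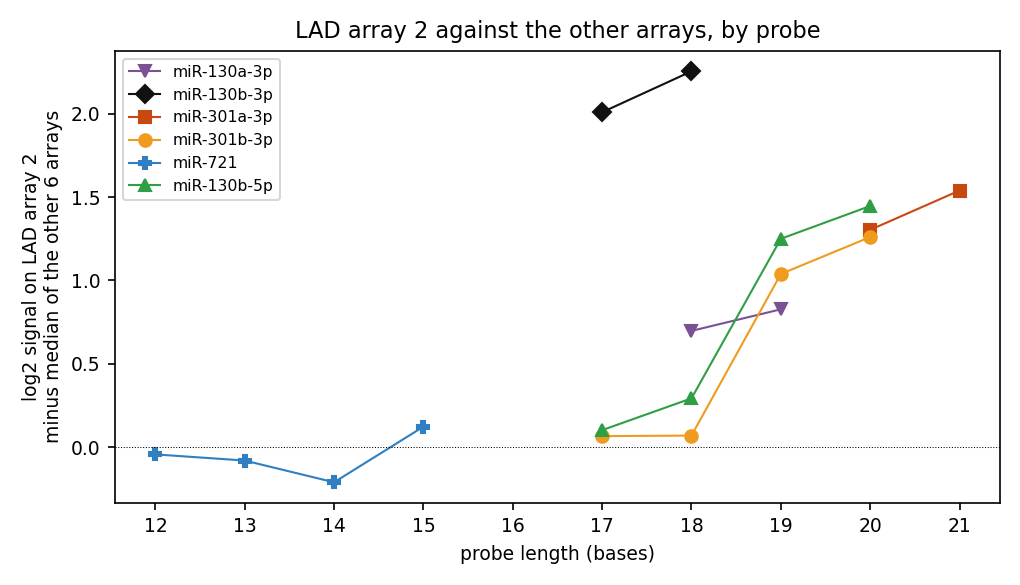
Log2 signal on LAD array 2 minus the median of the other 6 arrays for each probe of the members and of miR-130b-5p, against the length of the probe in bases. The miR-301b-3p probes rise from 0.07 at 17 bases to 1.26 at 20 bases, and both miR-130b-3p probes lie above 2.

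miR-130b-5p, the other arm of the Mir130b hairpin, was called detected on 4 of 4 EAM arrays and on LAD array 2 of the 3 LAD arrays. Of its 30 spots, only 1, 1, 0 and 1 were well above background on EAM arrays 1 to 4, and 14 on LAD array 2. Its log2 signals were 4.50, 4.57, 4.41 and 4.61 in EAM and 4.56, 5.31 and 4.57 in LAD. LAD array 2 was again the highest, and the groups overlapped. The EAM values were near those of LAD arrays 1 and 3, where it was not detected. They lay around the 95th percentile of undetected miRNAs, which was 4.49 to 4.55 on the EAM arrays. Its probes of 17, 18, 19 and 20 bases put LAD array 2 above the median of the other arrays by 0.10, 0.29, 1.25 and 1.45. The difference, EAM minus LAD, was -0.29 (SE 0.20, limma, adjusted p = 0.228). Without LAD array 2 it was -0.04 (limma, adjusted p = 0.665). The 5p arms of miR-130a, miR-301a and miR-301b were detected on no array. The other names with the same seed on the array, miR-130c, miR-6341 and miR-6389, were also detected on none.

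The miRNAs whose profile over the 7 arrays was most like that of the members were found by the root mean square difference between profiles centred on their own mean, in log2 signal, among 422 other tested miRNAs. For miR-130b-3p these were miR-181d-5p (0.08) and miR-181c-5p (0.15), of a family known for tuning T cell receptor sensitivity, and miR-34a-5p (0.25), a p53 target. For miR-301a-3p they were miR-93-5p (0.06), miR-18a-5p (0.14) and miR-363-3p (0.19), which come from 3 related clusters of the miR-17 group. miR-301a-3p ranked 5th among the profiles nearest to miR-130b-3p, and miR-130b-3p ranked 9th among those nearest to miR-301a-3p. On LAD array 2 miR-181d-5p stood at 7.56, against 4.91 to 5.74 on the other 6 arrays, and miR-93-5p at 9.54, against 7.52 to 8.23. Each of these profiles was highest on LAD array 2, which follows from choosing them by likeness to members that peak there.

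**Figure D5:**
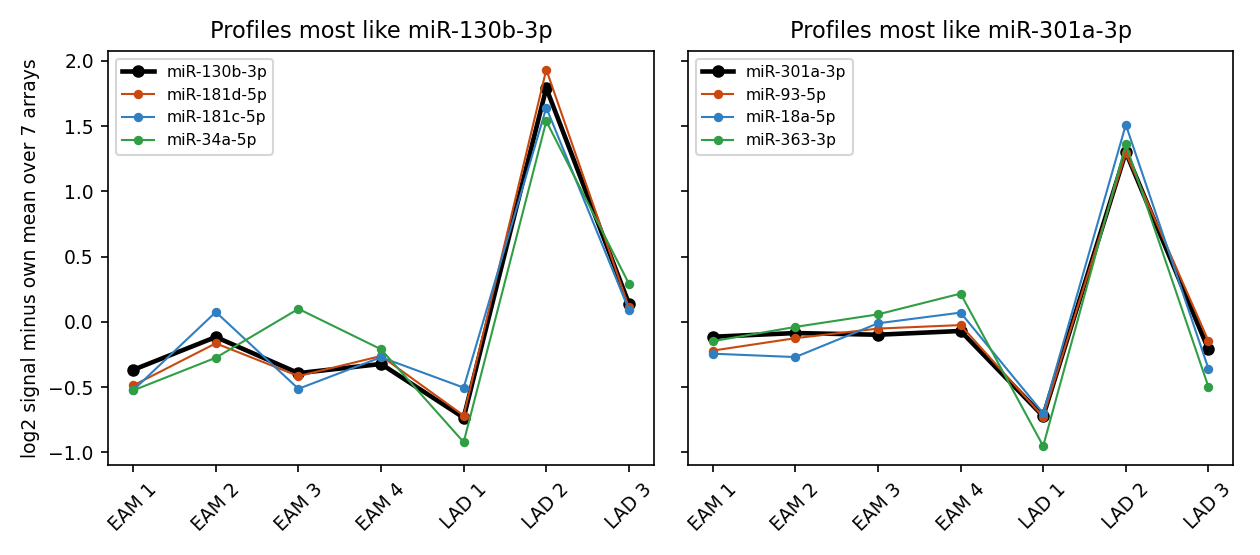
Log2 signal centred on each miRNA's mean over the 7 arrays, for miR-130b-3p and miR-301a-3p with the 3 profiles nearest to each. All lines peak on LAD array 2, at 1.79 for miR-130b-3p and 1.30 for miR-301a-3p, and are lowest on LAD array 1 except for miR-181c-5p, which is lowest on EAM array 1.

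miR-301a-3p is one of 14 miRNAs listed for their part in IL-17-producing helper cells, all of which were on the array. Of the list, 8 were tested, and limma called 2 higher in EAM and 1 higher in LAD, against 36.2% and 23.6% of all tested miRNAs. miR-155-5p, known to promote these cells, was 1.12 higher in EAM on the log2 scale (limma, adjusted p = 0.0264). miR-146a-5p, which restrains NF-kB signalling, was 1.88 higher in EAM (limma, adjusted p = 0.0204). miR-19b-3p, of the miR-17 cluster, was higher in LAD, at a difference of -0.72 (limma, adjusted p = 0.0236). Without LAD array 2 the differences of these 3 were 0.95, 1.42 and -0.53, and each still passed. That comparison called 344 of the 423 tested miRNAs (81.3%). Without LAD array 3, or without any one of EAM arrays 2, 3 and 4, none of the 3 passed. Those fits called 75 to 124 of the 423. None passed either when only probes detected on every array set the 75th percentile used for scaling (limma, adjusted p = 0.0915, 0.149 and 1), or with the replicate number as a block (0.0947, 0.0907 and 0.0974). miR-155-5p also did not pass in total gene signal (0.0753), with array weights (0.101) or with no detection filter (0.0546), and miR-155-5p and miR-19b-3p did not without EAM array 1. miR-19b-3p did not pass in total gene signal (0.0576) or in the authors' deposited table (0.356). The direction of miR-19b-3p turned to higher in EAM under 3 scalings. These were the 75th percentile of all probes (0.83), centring on the median (1.30) and no scaling (1.78). With no scaling miR-19b-3p passed in that direction (limma, adjusted p = 0.0289), where 299 miRNAs were called higher in EAM and 2 higher in LAD. With the percentile and the median it did not pass (0.422 and 0.0537). The other 5, which were miR-301a-3p, miR-21a-5p (0.57), miR-96-5p (0.40), miR-17-5p (0.46) and miR-27a-3p (0.31), did not pass. The median difference of the 8 was 0.43, beside 0.31 for all tested miRNAs. Of the list, miR-384-5p, miR-210-3p, miR-183-5p and miR-182-5p were detected on no array.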

How the data were processed

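Each array was read as its scanner file, in which Agilent Feature Extraction 10.7.3.1, per the file headers, gives the mean intensity of every spot and detection calls. The authors' deposited table holds log2 values, and the submitters' processing notes name RMA. Mean intensities of the 58594 spots, as deposited, were background-corrected by normexp (limma 3.58.1, R 4.3.3, offset 0) and control spots were dropped. The values were quantile-normalized and taken to log2. Spots of a probe, without outliers, were reduced to their median and the probes of a name by median polish. Names detected throughout EAM, throughout LAD or in both, 423 in number, were tested for EAM minus LAD with limma's lmFit and eBayes and Benjamini-Hochberg adjustment over all 423, at 0.05. The limma fit was tested on simulated log2 values per miRNA with an equal spread in both groups, unlike the tested members here. Median polish was tested on a small made-up set of probes. The background correction, quantile normalization, spot medians and detection filter were not tested on simulated data. Permutation p-values are the doubled smaller one-sided share of the 35 splits, computed for single values only. Intervals are at 95%. The number of arrays limits the precision.

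Members were taken by name. They, the marker lists and the list for IL-17-producing cells were chosen with earlier results of these data known. The miRNAs named were the members, their other arms, names with the same seed, the 3 nearest profiles of each tested member, and the list. Alternatives changed the background correction, scaling, summary, detection filter, variance model, array weights, replicate block and the arrays kept. Sequences and positions came from RefSeq on GRCm38.p6; the array design's own mapping uses mm9, from which no coordinates were taken.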

Additional observations from a re-analysis of the deposited data

How the results depend on the processing

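Of the 21 alternatives, miR-130b-3p kept its direction and its side of the threshold in 17 and miR-301a-3p in 16. The alternatives for detection filter, variance model and permutation test leave the difference itself unchanged, so its direction could not turn there. For miR-130b-3p the direction was also counted as kept without LAD array 2, at -0.0030. All differences are EAM minus LAD in log2 signal. With each array centred on its median the difference was 0.27 for miR-130b-3p and 0.43 for miR-301a-3p; with no scaling 0.75 and 0.91; and with array weights, a fit that did not converge, 0.27 and 0.53 (limma, adjusted p = 0.251 and 0.00877). Scaled to the 75th percentile of all probes, miR-301a-3p stood at 0.074. Leaving out 1 array at a time gave -1.27 to -0.0030 for miR-130b-3p and -0.64 to 0.38 for miR-301a-3p. These ends were reached without LAD array 1 and without LAD array 2. For miR-130b-5p the difference was 0.26 with no scaling and 0.93 in total gene signal. The cause of these turns was not tested. The number of miRNAs past the threshold, 253 of 423, became 70 when all probes set the 75th percentile, 20 when only probes detected on all arrays did, 166 in total gene signal, 445 with no detection filter and 135 among those detected on all 7 arrays, where other names are tested. With array weights 347 passed. Leaving out 1 array gave 75 to 344, the ends being without EAM array 4 and without LAD array 2. Of the calls, 153 were higher in EAM and 100 in LAD; with median centring these were 264 and 58, with no scaling 299 and 2. With the replicate block, limma called 0 of 423 (180 at an unadjusted p under 0.05), and gave -0.69 for miR-130b-3p and -0.22 for miR-301a-3p. Nothing in the sources used says whether the replicate numbers pair the arrays. The deviations of arrays with the same number from their group means correlated at 0.198, -0.161 and -0.192 across miRNAs. With so few arrays these values cannot decide whether the numbers pair them. Signals near or below background limit miR-130a-3p, miR-301b-3p and miR-721, which were at the floor on all 7 arrays under both 75th-percentile scalings.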

Other observations

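miR-130a-5p and miR-301a-5p, the arms opposite to their family members, were detected on no array. Their EAM arrays lay below all LAD arrays, at mean log2 signals of 4.22 ± 0.02 and 4.25 ± 0.03 (SD, n = 4) against 4.35 ± 0.05 and 4.35 ± 0.05 (SD, n = 3). The exact two-sided permutation test gave p = 0.0571 for each, the smallest it can give. limma over all names without a detection filter gave differences, EAM minus LAD, of -0.13 (adjusted p = 0.0405) for miR-130a-5p and -0.09 (adjusted p = 0.118) for miR-301a-5p, where it called 7.23% of the names detected on no array higher in LAD. The same order was found for 19.2% of the 1328 names detected on no array. None of the 210 spots of either arm was well above background, and no fold is given.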
